A study of Mus musculus with 3 samples.

Results

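Capillary endothelial cells of the mouse medial prefrontal cortex (mPFC) were taken from 3 single-cell libraries: an estrus and a diestrus library of female mice and a library of male mice. The series comprised 52083 cell barcodes, and 3706 of them were chosen by a rule on measured unique molecular identifiers (UMIs, each standing for 1 captured RNA molecule): 1258 in estrus, 1308 in diestrus and 1140 in males. The rule kept barcodes with at least 500 genes, at most 15% mitochondrial UMIs and at least 20 UMIs of Cldn5, Flt1 and Ly6c1 together per 10000. It removed barcodes with more than 5 UMIs per 10000 of the mural genes Rgs5 and Vtn or of the glial genes C1qa, Mog and Gja1 together, and those with more than 1 UMI of the neuronal gene Slc17a7. Last, it required 0 UMIs of the arterial genes Gkn3, Bmx and Sema3g and 0 of the venous genes Vwf and Vcam1, so the members had to lack arterial and venous RNA at the depth reached.

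The study asked how cells of the mPFC, a region of executive and emotional control, differ with the estrous cycle and with sex. Each library pooled the tissue of 2 mice, dissociated with papain, cleared of myelin in 30% Percoll and loaded at 15000 cells onto 10x Genomics 3′ v3.1 chemistry. All 3 groups were untreated as far as the labels say; the sources name no strain, age or genotype. With 1 pooled library per group there was no replicate, so no difference between groups could be tested, and every interval given is an exact 95% interval that covers counting error only. Estrus, diestrus and sex cannot be told apart from the mice pooled, the dissociation or the library.

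Brain capillaries form the main exchange surface of the blood–brain barrier: their endothelial cells are sealed by tight junctions, take up little by vesicles and rely on dedicated carriers for glucose, amino acids, lipids and hormones. Their identity depends on Wnt/β-catenin signals from the surrounding tissue, while blood flow is sensed through mechanosensitive channels and Krüppel-like factors. They also carry receptors for circulating steroids, among them the glucocorticoid receptor.

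The genes of the rule are given as a description: Ly6c1, a surface antigen gene, had 5043 in estrus, 3799 in diestrus and 4880 UMIs per 1000000 (CPM, mitochondrial genes left out) in the summed male cells, and Flt1, a VEGF receptor gene, had 4249, 4080 and 3269 CPM in estrus, diestrus and males. The cell label was checked against genes that the rule did not use. Mfsd2a, the lipid carrier that restrains vesicular transport, had 434 in estrus, 271 in diestrus and 232 CPM in male cells. The organic anion carrier Slco1a4 had 2045 in estrus, 2558 in diestrus and 2756 CPM in male cells, and the membrane protein gene Itm2a had 3216 in estrus, 3226 in diestrus and 2945 CPM in male cells. Cdh5, which encodes the adherens junction protein VE-cadherin, lay at 334 in estrus, 330 in diestrus and 338 CPM in male cells. Pecam1, which encodes another endothelial adhesion protein, lay at 590, 503 and 495 CPM in estrus, diestrus and male cells. The 8 pan-endothelial markers outside the rule summed to 8728 CPM in estrus, 6837 in diestrus and 5733 in males. All 8 were detected in each library, but so were all 7 neuronal markers, so detection alone does not separate cell types. The deposited cell type label calls the whole material neurons, which these values go against for the cells described here. Xist was at 327 CPM in estrus and 421 CPM in diestrus and at 0 UMIs in male cells, which allows up to 1.22 CPM, while the Y-linked gene Eif2s3y was at 89.3 CPM in males and at 0 UMIs in both female libraries.

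**Figure D1:**
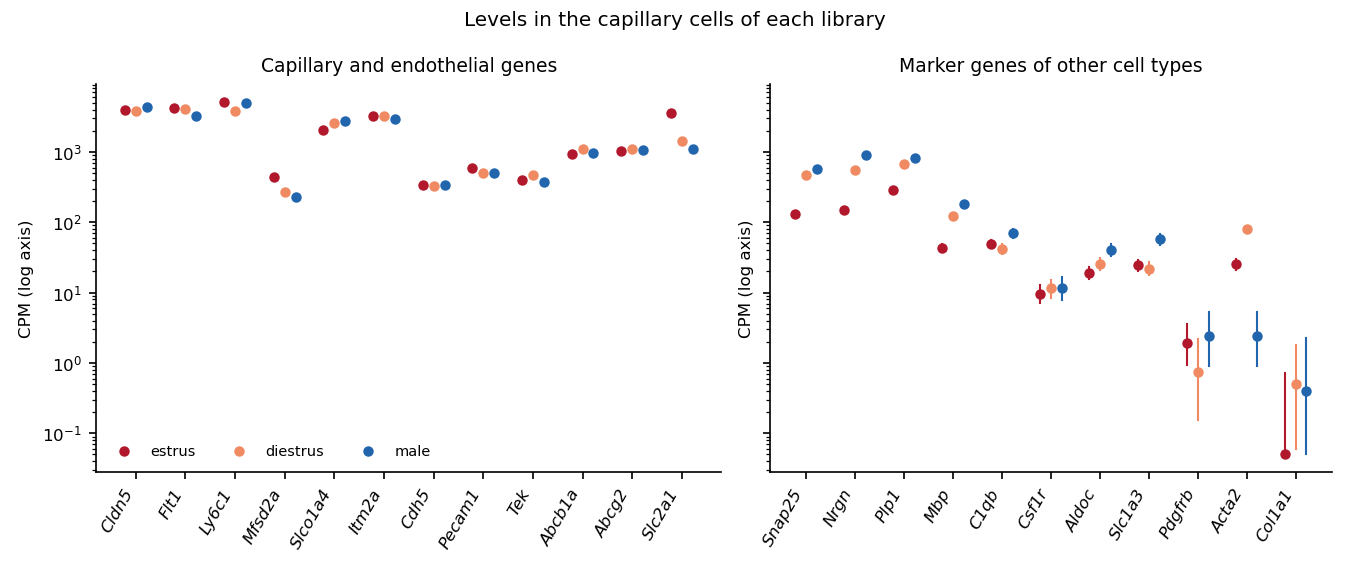
Level in CPM (log axis) of endothelial genes (left) and of genes of other cell types (right) in capillary endothelial cells of the estrus, diestrus and male libraries. Points are 1 library each, bars are exact Poisson 95% intervals, and a level of 0 is drawn at the lower edge. Cdh5 sits at 334, 330 and 338 CPM, while the neuronal genes Snap25 and Nrgn are lowest in the estrus library.

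RNA of other cell types differed between the libraries within these cells. The 7 neuronal markers summed to 518 in estrus, 1509 in diestrus and 2447 CPM in male capillary cells, against 13116, 14574 and 14109 CPM in the neurons of the same libraries. Nrgn, a neuronal calmodulin-binding protein gene, was seen in 26.3% of estrus cells, 58.7% of diestrus cells and 73.0% of male capillary cells thinned to 2000 UMIs. In microglia thinned to the same depth, a type that should lack it, Nrgn was seen in 19.6%, 52.8% and 62.1% of estrus, diestrus and male cells, close to the capillary shares and in the same order. The 5 oligodendrocyte markers summed to 424 in estrus, 1039 in diestrus and 1310 CPM in male capillary cells. Pericyte markers summed to 10.2, 17.7 and 24.0 CPM in estrus, diestrus and male cells. Smooth muscle markers differed more, with 55.8, 167 and 3.65 CPM, and were seen in 5.17%, 4.66% and 0.789% of the cells. Their part in the gene differences below was not tested.

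Depth differed between the libraries as well. The median was 3688.5 UMIs and 1819.5 genes per capillary cell in estrus, 2736.5 UMIs and 1574 genes in diestrus, and 1886.5 UMIs and 1183 genes in males, and 14.7%, 36.1% and 53.2% of the estrus, diestrus and male cells had under 2000 UMIs. Haemoglobin RNA made up 4.86%, 3.84% and 4.39% of their UMIs. No capillary cell shared its barcode with a capillary cell of another library, although 81, 68 and 97 barcodes of any type were common to estrus and diestrus, estrus and male, and diestrus and male. At the threshold of the rule, the lowest members had 21.3, 20.0 and 20.1 UMIs of Cldn5, Flt1 and Ly6c1 per 10000 in estrus, diestrus and males, and the highest barcodes outside had 18.8, 19.9 and 20.0. Few estrus barcodes lay near it: 6 members lay between 20 and 25 per 10000 in estrus, against 58 in diestrus and 30 in males.

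Capillary cells made up 9.69% (9.19 to 10.2) of the barcodes within the gene and mitochondrial limits in estrus, 8.81% (8.35 to 9.27) in diestrus and 6.98% (6.59 to 7.38) in males. Before the arterial and venous limits were applied, the endothelial barcodes numbered 2425 in estrus, 2174 in diestrus and 1742 in males. With the limits applied to cells thinned to 2000 UMIs, which also leaves out all barcodes under that depth, the shares were 13.9% in estrus, 10.7% in diestrus and 6.29% in males. Dissociation and loading also set such shares, so they are shares of recovered barcodes.

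Set against each other, the capillary cells of the 3 libraries differed most between estrus and the other libraries. Genes were compared by the log2 ratio of CPM + 1 where a pair of libraries held at least 100 UMIs and a mean of at least 20 CPM, and a gene was counted as past the threshold at an absolute log2 ratio of at least 1. Estrus against diestrus had 126 of 6902 genes past it on the higher side (1.83%) and 456 on the lower side (6.61%). In estrus against male cells, 287 of 7001 were past it on the higher side (4.1%) and 739 on the lower side (10.6%). Diestrus against male cells gave 26 of 7320 on the higher side (0.355%) and 76 on the lower side (1.04%). This balance turned round under wider limits on RNA of other cell types, with 42 higher and 7 lower of 1364, and among genes highest in capillary cells, with 7 higher and 3 lower of 1669. Both estrus pairs also turned round under the wider limits, with 166 higher and 134 lower of 5214 over diestrus and 520 higher and 214 lower of 4741 over males. The first pair and the second share the estrus library, and each library enters 2 of the 3 pairs.

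Genes lower in estrus were often those with their highest level in another cell class, as were most genes tested. Of the 456 genes lower in estrus than in diestrus, 240 had their highest level in neurons and 74 in oligodendrocytes. Of the 739 lower than in males, 430 had it in neurons and 109 in oligodendrocytes. The share of all tested genes highest in either class is not given here, so no excess can be read from these counts. Genes past the threshold on the higher side with their highest level in neurons numbered 3 over diestrus and 9 over males. Among the 358 genes of the first pair far below their level in another cell class, 187 were lower and 1 higher over diestrus. Over males 262 of 361 such genes were lower and 2 higher. Among the 1513 genes of the first pair whose level was highest in capillary cells of all classes compared, 74 were past the threshold on the higher side and 33 on the lower side, and among 1533 such genes of the estrus against male pair, 169 and 34 were. The median log2 ratio of all tested genes was -0.13 for estrus over diestrus, -0.08 for estrus over male and 0.01 for diestrus over male. With TMM factors these medians were 0.12, 0.25 and 0.08 and the counts on the higher and lower side were 234 and 270, 622 and 514, and 43 and 61; with DESeq2 size factors the medians were 0.15, 0.26 and 0.06 and the counts 262 and 251, 638 and 506, and 36 and 63.

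Carriers for glucose and large neutral amino acids were higher in estrus. Slc2a1 (chr4:119108711-119137983, plus strand, mm10), which encodes the glucose carrier GLUT1, had 3588 CPM (3537 to 3640) in estrus, 1426 (1389 to 1463) in diestrus and 1093 (1052 to 1135) in males. Its log2 ratio was 1.33 (1.29 to 1.37) for estrus over diestrus, 1.71 (1.66 to 1.77) for estrus over male and 0.38 (0.32 to 0.45) for diestrus over male. Slc7a5 (chr8:121881150-121907694, minus strand) encodes LAT1, the light chain of an amino acid exchanger. It had 1041 CPM in estrus, 369.5 in diestrus and 229.4 in males, with log2 ratios of 1.49 (1.41 to 1.58), 2.18 (2.06 to 2.31) and 0.69 (0.55 to 0.83) in the same order of pairs. The gene of its heavy chain partner, Slc3a2, had 606 CPM in estrus, 440 in diestrus and 529 in males, with log2 ratios of 0.46, 0.20 and -0.27, under the threshold in each pair.

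The difference in Slc2a1 ran through the population of cells. At 2000 UMIs per cell, 99.1% of estrus cells, 88.3% of diestrus cells and 81.6% of male cells held at least 1 UMI, against 8.4%, 4.7% and 4.4% of estrus, diestrus and male microglia, and 78.2%, 21.7% and 13.9% held at least 5. In estrus over diestrus the same gene had a log2 ratio of 0.82 in arterial endothelial cells, 1.17 in venous-like cells, 0.71 in microglia, 0.45 in astrocytes, 0.17 in neurons and 0.15 in pericytes. Slc7a5 had 1.57 in arterial, 1.29 in venous-like, 0.65 in microglia and 0.59 in neurons. Whether these ratios differ between cell types was not tested.

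The other carriers were mostly within a log2 ratio of 1. Of 24 solute carriers on the list, 22 could be compared in estrus over diestrus: 9 lay above 0 and 13 below, 2 were past the threshold, both higher, and the median was -0.06 beside -0.13 for all tested genes. This median became 0.19 with TMM and 0.22 with DESeq2 factors, so its direction depends on the scaling. Over males the median was 0.36 with 18 above 0 and 4 below, and Slc2a1 and Slc7a5 were again those past the threshold. Slco1c1, the thyroxine carrier, had 1285 in estrus, 1478 in diestrus and 1212 CPM in males. The iron exporter Slc40a1 had 223, 317 and 254 CPM in estrus, diestrus and male cells, and the zinc carrier Slc39a10 had 623, 888 and 641 CPM. Mfsd2a was below the threshold in each pair, at 0.67 for estrus over diestrus and 0.90 for estrus over male.

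Efflux pumps return drugs and metabolites to the blood. None of the 8 pumps tested out of 10 passed the threshold in any pair, and the medians were -0.18, -0.05 and 0.17 in estrus over diestrus, estrus over male and diestrus over male; with TMM the first and second became 0.08 and 0.28. Abcg2 had 1032 in estrus, 1108 in diestrus and 1058 CPM in males, and Abcb1a, the P-glycoprotein gene, had 921, 1088 and 960 CPM. Junction genes gave 0 calls among 13 of 16 tested in each pair, with medians of 0.14, 0.41 and 0.21; the first was -0.02 with cells thinned to 2000 UMIs. Cldn5, a gene of the rule, had 3981, 3764 and 4383 CPM in estrus, diestrus and males, and the occludin gene Ocln had 271, 245 and 164 CPM.

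Receptors for transcytosis showed 1 member past the threshold. Of 14 tested among 18, Lrp1, a scavenger receptor gene, was lower in estrus than in males, and the medians were 0.19, 0.55 and 0.23 in the order of pairs above. The transferrin receptor gene Tfrc had 404 in estrus, 456 in diestrus and 402 CPM in males. The gene of the insulin-like growth factor receptor, Igf1r, separated both female libraries from the male one without reaching the threshold: it had 1890 in estrus, 1995 in diestrus and 1088 CPM in males, and log2 ratios of -0.08, 0.80 and 0.87. Sgms1, a sphingomyelin synthase gene kept with the vasoactive list, was alike with 1580, 1565 and 824.5 CPM in estrus, diestrus and males.

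Targets of the glucocorticoid receptor were mostly higher in estrus. These genes are turned on when circulating corticosteroids bring the receptor to chromatin. Of 13 on the list, 10 could be tested in estrus over diestrus. Of these 9 lay above 0, 6 were past the threshold on the higher side and 0 on the lower side. The median was 1.27 beside -0.13 for all tested genes, of which 36.8% lay above 0 and 1.83% were past it on the higher side. Over males 9 of 10 lay above 0, 7 were past the threshold, and the median was 1.59; in diestrus over male 7 of 9 lay above 0, 1 was past it, and the median was 0.31, or -0.17 among the 620 estrus, 133 diestrus and 58 male cells with at most 10 UMIs per 10000 of a wider set of other cell types' markers.

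Fkbp5 (chr17:28399094-28517527, minus strand), a chaperone gene that feeds back on the receptor, had 384 UMIs and 73.9 CPM (66.7 to 81.7) in estrus, 26 UMIs and 6.50 CPM (4.25 to 9.52) in diestrus, and 9 UMIs and 3.65 CPM (1.67 to 6.94) in males. Its log2 ratio was 3.32 (2.93 to 4.14) over diestrus and 4.01 (3.40 to 5.48) over males. The gene is also expressed in microglia, which had 801 CPM in estrus, 192 in diestrus and 135 in males. The capillary level was under 10% of the microglial one in each library, so Fkbp5 was left out of the genes ranked per pair. How much free microglial RNA adds to the capillary level was not tested. Tsc22d3 (chrX:140539528-140600659, minus strand), whose product GILZ restrains inflammatory transcription, had 761 in estrus, 277 in diestrus and 203 CPM in males. It was seen in 73.6% of estrus cells, 39.1% of diestrus cells and 31.1% of male capillary cells at 2000 UMIs, and in 39.9%, 16.8% and 17.7% of estrus, diestrus and male microglia.

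Cdkn1a (chr17:29090976-29100727, plus strand), which encodes the cell cycle inhibitor p21, had 971 CPM in estrus, 260 in diestrus and 186 in males, and log2 ratios of 1.90 (1.81 to 2.0) and 2.38 (2.24 to 2.52) for estrus over diestrus and over male. It was found in 80.1%, 36.7% and 28.3% of thinned capillary cells in estrus, diestrus and males, and in 2.85%, 2.90% and 3.25% of thinned microglia. For estrus over diestrus its log2 ratio was 2.85 in oligodendrocytes, 2.53 in venous-like cells, 1.88 in arterial cells, 1.42 in astrocytes, 1.06 in pericytes, 0.88 in neurons and 0.05 in microglia, so the difference was not particular to capillary cells. Ddit4, an inhibitor of mTOR signalling, had 303, 82.7 and 66.6 CPM in estrus, diestrus and males, and Sult1a1, a sulfotransferase gene, had 82.4, 36.2 and 33.3 CPM. The transcription factor gene Zbtb16 differed at each step, with 225 in estrus, 86.5 in diestrus and 30.0 CPM in males, and passed the threshold in all 3 pairs, at 1.37 (1.20 to 1.56), 2.86 (2.57 to 3.26) and 1.50 (1.16 to 1.91).

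Some members of the list did not move this way. The metallothionein gene Mt1 was lowest in estrus, with 641 CPM against 782 in diestrus and 857 in males, and Sgk1, a kinase gene, had 206, 164 and 133 CPM in estrus, diestrus and males, under the threshold in each pair. The receptor itself, Nr3c1, had 277 in estrus, 263 in diestrus and 190 CPM in males, with a log2 ratio of 0.07 for estrus over diestrus. The mineralocorticoid receptor gene Nr3c2 had 51.8 CPM in estrus, 137.5 in diestrus and 93.0 in males, and its log2 ratio over diestrus was -1.39 (-1.62 to -1.20). For estrus over diestrus, Fkbp5 was also past the threshold in microglia (2.06), oligodendrocytes (2.74), astrocytes (2.55) and pericytes (1.70), and Tsc22d3 in microglia (1.42), astrocytes (1.63) and pericytes (1.28), so neither difference belonged to the capillary cells alone.

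Genes of the circadian clock were added to the lists after the values had been seen. The clock runs in endothelial cells as in most tissues, and Per1 belongs both to it and to the glucocorticoid targets. Ciart, a repressor of the clock activators, had 42.1 CPM in estrus, 10.7 in diestrus and 5.28 in males, and its log2 ratio was 1.88 (1.49 to 2.48) over diestrus and 2.78 (2.19 to 3.93) over males. Per1 had 69.1 in estrus, 43.7 in diestrus and 28.0 CPM in males, and Bhlhe40, another repressor, 148, 68.5 and 52.8 CPM. Below the minimum for testing, Per2 had 23.1, 5.75 and 3.25 CPM in estrus, diestrus and males, and Arntl, the gene of the activator BMAL1, ran the other way at 4.23, 15.7 and 20.3 CPM. Of 16 clock genes 11 were tested in estrus over diestrus, with 8 above 0, Ciart and Bhlhe40 past the threshold and a median of 0.32. For all tested genes 36.8% lay above 0, 1.83% were past it on the higher side and the median was -0.13.

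Start-site windows of these genes were read from RefSeq on GRCm38.p6, the build also named mm10, from 250 bases before to 50 after the annotated start. A pair of hexamers was searched on both strands, with no overlap between them in the windows shown: AGAACA, the half-site of the glucocorticoid response element (read TGTTCT on the other strand), and CACGTG, the palindromic E-box bound by the clock activators. Of 32851 such windows 18.97% hold the first and 7.15% the second. Of the glucocorticoid list, 12 of 13 genes matched with 22 windows, 5 of which hold AGAACA and 3 CACGTG; of the clock list, 14 of 16 matched with 19 windows, 1 of which holds AGAACA and 6 CACGTG. The windows of Cdkn1a, Ddit4, Slc2a1 and Rgcc hold neither. A match describes letters in the window and does not show binding.

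The 4 windows below belong to genes that were higher in estrus and hold a match, shown 5′ to 3′ on the gene's strand with the match in capitals. They are Ciart at chr3:95882179-95882478, Per1 at chr11:69098699-69098998 (the first of 2 windows), Fkbp5 at chr17:28486100-28486399 and Tsc22d3 at chrX:140600473-140600772 (the third of 3 windows). Ciart holds 3 E-boxes, Per1 and Fkbp5 hold 1 each, and the Tsc22d3 window holds the half-site on the opposite strand.
Ciart: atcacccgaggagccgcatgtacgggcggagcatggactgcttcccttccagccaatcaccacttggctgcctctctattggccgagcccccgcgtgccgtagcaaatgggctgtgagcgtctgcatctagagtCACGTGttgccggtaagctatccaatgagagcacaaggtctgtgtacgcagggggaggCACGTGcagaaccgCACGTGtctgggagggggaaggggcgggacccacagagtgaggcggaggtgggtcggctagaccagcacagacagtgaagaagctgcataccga
Per1: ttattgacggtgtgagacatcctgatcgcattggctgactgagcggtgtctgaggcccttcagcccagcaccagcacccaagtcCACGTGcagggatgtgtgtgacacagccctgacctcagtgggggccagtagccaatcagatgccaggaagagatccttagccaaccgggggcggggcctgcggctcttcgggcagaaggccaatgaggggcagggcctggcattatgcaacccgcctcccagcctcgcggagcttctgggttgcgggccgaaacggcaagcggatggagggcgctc
Fkbp5: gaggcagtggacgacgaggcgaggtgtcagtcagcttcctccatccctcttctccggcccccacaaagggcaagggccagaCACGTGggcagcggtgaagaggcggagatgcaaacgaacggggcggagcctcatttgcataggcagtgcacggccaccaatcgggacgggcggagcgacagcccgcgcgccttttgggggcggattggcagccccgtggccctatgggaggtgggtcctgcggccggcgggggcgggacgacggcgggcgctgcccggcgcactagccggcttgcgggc
Tsc22d3: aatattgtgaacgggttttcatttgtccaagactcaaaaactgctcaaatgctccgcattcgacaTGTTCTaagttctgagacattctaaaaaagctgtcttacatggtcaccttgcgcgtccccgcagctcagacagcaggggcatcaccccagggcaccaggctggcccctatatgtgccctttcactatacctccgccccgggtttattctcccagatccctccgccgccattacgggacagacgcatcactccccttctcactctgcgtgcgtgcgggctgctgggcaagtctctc

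Krüppel-like factors and other flow-related genes were ordered estrus, diestrus, male without exception among those tested. All 11 members tested lay above 0 in each of the 3 pairs, with medians of 0.73, 1.43 and 0.55. Of them 3, 9 and 0 were past the threshold, all on the higher side. Among all tested genes 36.8%, 44.1% and 50.8% lay above 0, with medians of -0.13, -0.08 and 0.01, and 1.83%, 4.1% and 0.355% were past it on that side. Klf2 (chr8:72319033-72321656, plus strand), a flow-induced factor that keeps endothelium quiescent, had 2823 CPM (2777 to 2869) in estrus, 1992 (1948 to 2036) in diestrus and 1359 (1313 to 1406) in males. Its log2 ratios were 0.50, 1.05 and 0.55, and 55.5% of estrus cells, 37.9% of diestrus cells and 24.4% of male cells thinned to 2000 UMIs held at least 5. Its relative Klf4 had 745, 460 and 251 CPM in estrus, diestrus and males.

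Members past the threshold over diestrus were Klf3 (374 in estrus, 134 in diestrus and 109 CPM in males), Klf10 (87.2, 33.5 and 21.1 CPM) and Klf13 (493, 204 and 179 CPM). Thrombomodulin, the anticoagulant receptor encoded by Thbd, had 126 CPM in estrus, 81.7 in diestrus and 54.0 in males. Piezo1, which encodes a stretch-gated channel, had 111, 66.5 and 43.0 CPM in the same order, and the nitric oxide synthase gene Nos3 had 193, 144 and 121 CPM. In other vessel cells the log2 ratio of Klf2 for estrus over diestrus was -0.08 in arterial and 0.31 in venous-like cells. For estrus over male it was 0.53 in arterial and 1.09 in venous-like cells, and for diestrus over male 0.61 and 0.78. Whether these differ from the capillary ratios was not tested.

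**Figure D2:**
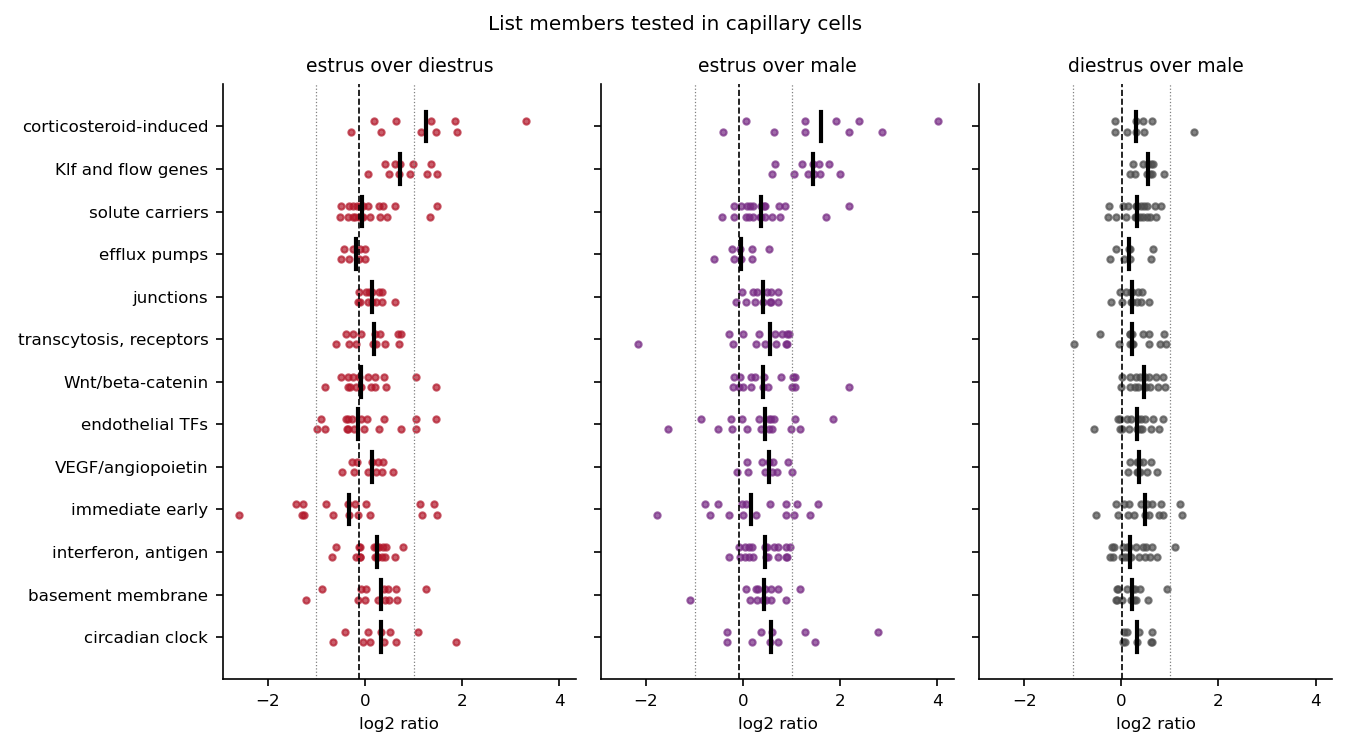
Log2 ratio of CPM + 1 for the tested members of 13 gene lists in capillary cells, 1 panel per pair of libraries. Each point is a gene, the black bar is the list's median, the dashed line is the median of all tested genes and the dotted lines mark -1 and 1. Glucocorticoid targets have medians of 1.27 and 1.59 in estrus over diestrus and over male, against 0.31 in diestrus over male.

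Genes of the Wnt pathway that shapes barrier identity included 2 past the threshold in estrus over diestrus, 5 in estrus over male and 0 in diestrus over male, all on the higher side. Among all tested genes 1.83%, 4.1% and 0.355% were past it on that side in these pairs. Fzd4, the receptor for Norrin and Wnt7 ligands, had 288.5 CPM in estrus, 104.5 in diestrus and 62.9 in males, with log2 ratios of 1.46 (1.31 to 1.63), 2.18 (1.96 to 2.44) and 0.72 (0.46 to 1.01). The Wnt target Apcdd1 had 431, 372 and 206 CPM in estrus, diestrus and males, and Lef1, the nuclear partner of β-catenin, had 662, 780 and 555 CPM. Of 17 Wnt pathway genes tested, 8 lay above 0 in estrus over diestrus with a median of -0.07 (0.18 with TMM, 0.21 with DESeq2 factors), 12 in estrus over male with 0.41 beside -0.08 for all genes, and 16 in diestrus over male with 0.47 beside 0.01.

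Among endothelial transcription factors, Sox17, Sox18 and Gata2 were past the threshold in estrus over diestrus. Sox18 had 414 CPM in estrus, 149.5 in diestrus and 113 in males, and Sox17 had 401.5, 194 and 191 CPM; the log2 ratios over diestrus were 1.46 and 1.05. Gata2 had 167, 80.5 and 84.0 CPM in estrus, diestrus and males. Erg, an ETS factor that maintains endothelial identity, had 176 in estrus, 313 in diestrus and 321 CPM in males, at -0.83 and -0.86 under the threshold. Ets2 had 46.0, 92.5 and 137 CPM in the same order and passed the threshold over males at -1.55 (-1.82 to -1.33). The list's median over diestrus was -0.15, beside -0.13 for all tested genes, and turned to 0.10 with TMM. On the higher side 3 of 18 members were past the threshold, beside 1.83% of all tested genes.

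Id1, a target of BMP receptors that blocks differentiation factors, had 2883 CPM in estrus, 1250 in diestrus and 1232 in males. Its log2 ratios were 1.21 (1.16 to 1.25), 1.23 (1.17 to 1.28) and 0.02 (-0.04 to 0.09), so the diestrus and male libraries did not differ beyond counting error. At 2000 UMIs per cell 62.3% of estrus cells, 20.7% of diestrus cells and 15.2% of male cells held at least 5 Id1 UMIs. Smad7, an inhibitor of the same pathway, had 260, 123 and 80.8 CPM in estrus, diestrus and males. Id1 and Smad7 were the members past the threshold among 15 tested TGFβ and BMP genes in estrus over diestrus. The list's median was 0.18 beside -0.13 for all tested genes, of which 1.83% were past it on the higher side.

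Among genes with at least 10% of the level of any other cell class, those highest in estrus over diestrus were led by Tnfrsf12a (chr17:23675445-23677468, minus strand), which encodes Fn14, the receptor for TWEAK. It had 295 CPM (280 to 310) in estrus, 36.2 (30.6 to 42.6) in diestrus and 38.6 (31.2 to 47.1) in males, and log2 ratios of 2.99 (2.78 to 3.28) and 2.90 (2.64 to 3.25). Thinned to 2000 UMIs, 41.7% of estrus cells, 7.54% of diestrus cells and 6.75% of male capillary cells held it, against 1.60%, 1.25% and 2.11% of microglia. Arterial cells had a ratio of 3.13 and venous-like cells 2.85 over diestrus.

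Rgcc (chr14:79288756-79301645, minus strand), a hypoxia- and complement-responsive regulator of the cell cycle and a capillary zonation gene, had 1887 CPM (1850 to 1925) in estrus, 447.5 (427 to 469) in diestrus and 401.5 (377 to 427) in males. At 2000 UMIs 34.0% of estrus cells, 1.79% of diestrus cells and 1.50% of male cells held at least 5 UMIs. Fam107a, an actin-associated stress gene, had 134, 24.7 and 19.9 CPM in estrus, diestrus and males, and the mitotic kinase gene Wee1 had 56.4, 11 and 10.6 CPM. Ctla2b had 303, 78.2 and 66.2 CPM, and Plaur, which encodes the urokinase receptor, had 97.8, 25.2 and 13.4 CPM. Each of these genes was highest in estrus, and Plaur was also higher in diestrus than in males.

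Further leading genes had their lowest value in males. Maff, a small Maf factor gene, had 92.4 CPM in estrus, 23.5 in diestrus and 7.31 in males, and Map3k6, a stress kinase gene, had 60.4, 15.0 and 3.25 CPM. Adamts9, a matrix protease gene, had 57.5, 19.7 and 4.87 CPM in estrus, diestrus and males. Pmepa1, an inhibitor of TGFβ signals, had 336, 111 and 54.8 CPM, and Nes, the intermediate filament gene of growing vessels and progenitors, had 439, 136 and 94.2 CPM. Cmss1, a ribosome biogenesis gene, had 7112, 1324 and 2240 CPM in estrus, diestrus and males, with its lowest value in diestrus. Its log2 ratio for estrus over diestrus was 2.42 in capillary cells and 2.41 to 2.99 in the 7 other classes, so the difference ran through the library. Nfkbia, an NF-κB inhibitor, had 1357, 624 and 549 CPM, and the small heat shock protein gene Hspb1 had 1639, 810 and 774 CPM, the only member past the threshold among 10 tested heat shock genes, whose median over diestrus was 0.09.

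**Figure D3:**
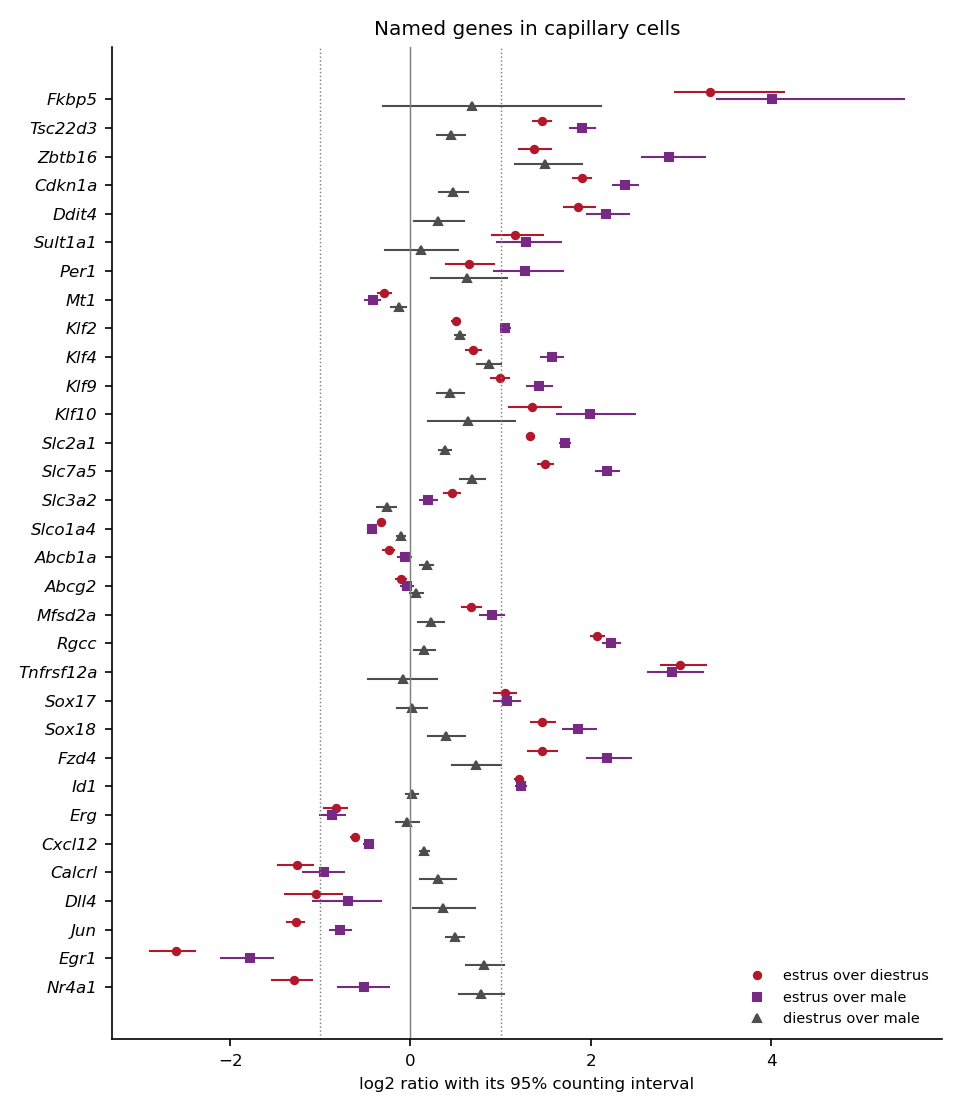
Log2 ratio of CPM + 1 with exact 95% counting intervals for 32 genes named in the text, for estrus over diestrus, estrus over male and diestrus over male. Fkbp5 (3.32 and 4.01) and Tnfrsf12a (2.99 and 2.90) are far to the right in both estrus pairs, and Egr1 (-2.60 and -1.78) is far to the left.

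**Figure D4:**
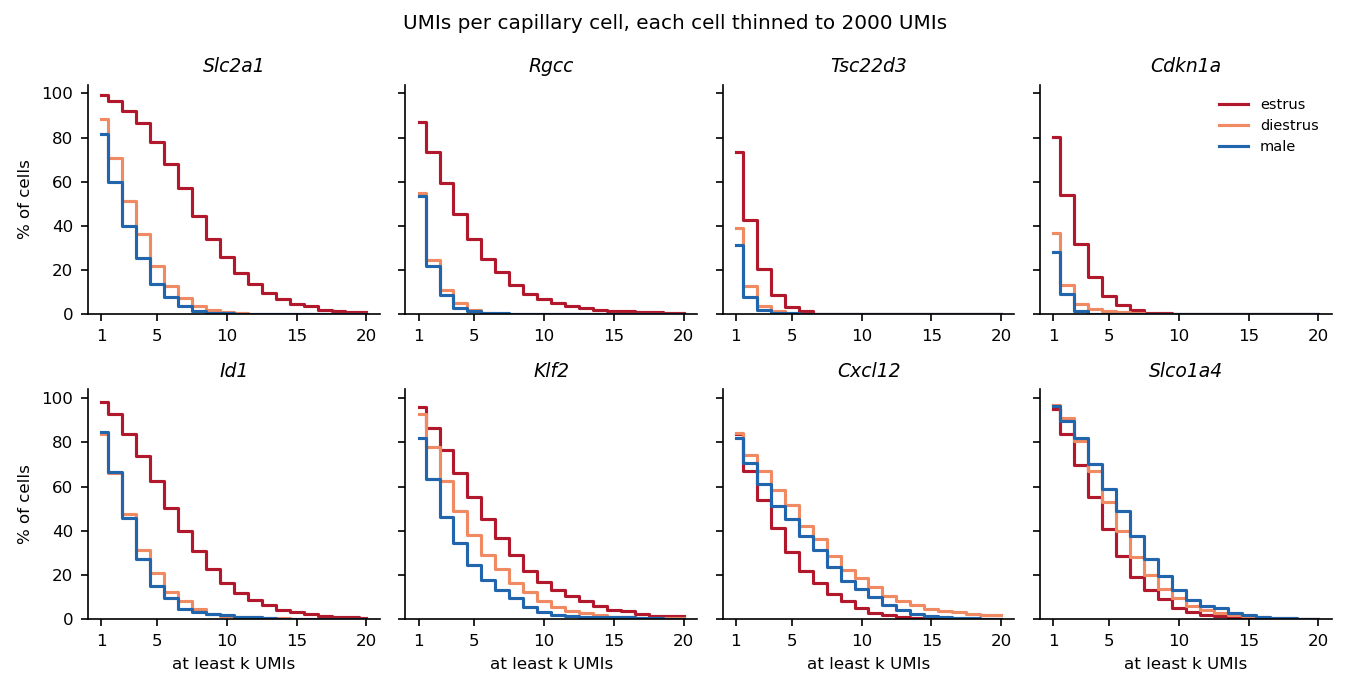
Percentage of capillary cells, each thinned to 2000 UMIs, that hold at least the number of UMIs on the x axis, for 8 genes and 3 libraries. The estrus curves of Slc2a1, Rgcc, Cdkn1a and Id1 lie to the right of the others, with 78.2% of estrus cells, 21.7% of diestrus cells and 13.9% of male cells at 5 or more Slc2a1 UMIs, while the Cxcl12 curve is lower in estrus.

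Immediate-early genes, which respond within minutes to stimuli and to dissociation, were split. Egr1 had 157 UMIs and 30.2 CPM (25.7 to 35.3) in estrus, 751 UMIs and 188 CPM (175 to 202) in diestrus, and 261 UMIs and 106 CPM (93.5 to 120) in males. Its log2 ratio was -2.60 (-2.89 to -2.39) over diestrus and -1.78 (-2.10 to -1.52) over males. Jun had 257, 621 and 441 CPM in estrus, diestrus and males, Dusp1 had 220, 525 and 355 CPM, and Nr4a1 had 49.5, 122.5 and 71.0 CPM, with ratios over diestrus of -1.27, -1.25 and -1.29. These 3 genes and Egr1 were therefore lowest in estrus and highest in diestrus.

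In contrast Jund had 820 CPM in estrus, 375 in diestrus and 281 in males, and Ier3, Ier5 and Ier5l were past the threshold on the higher side over diestrus at 1.42, 1.18 and 1.48. In all, 4 of 17 immediate-early genes were past it on the higher side and 5 on the lower side in estrus over diestrus, with a median of -0.34. Among all tested genes 1.83% were past it on the higher side and 6.61% on the lower side, with a median of -0.13. In diestrus over male 14 of 17 lay above 0, with Fosb and Atf3 past the threshold. For all tested genes of that pair 50.8% lay above 0 and 0.355% were past it on the higher side. In arterial and venous-like cells Egr1 stood at -2.81 and -2.99 for estrus over diestrus, whereas microglia stood at 0.43 and neurons at -0.22; Jun stood at -1.40 and -1.22 in these vessel classes, 0.91 in microglia and 0.34 in neurons.

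Fewer genes with their highest level in capillary cells were lower in estrus. Myct1, an endothelial membrane protein gene, had 19.8 CPM in estrus, 64.7 in diestrus and 76.3 in males, and Lrrn3 had 52.9, 186 and 162 CPM. Clec2d, a ligand of natural killer cell receptors, had 197, 456 and 718 CPM in estrus, diestrus and males, and its log2 ratio over males was -1.86 (-1.98 to -1.76). Ndnf had 93.1, 247 and 228 CPM. Npy and Sst, which encode neuropeptides of interneurons, met the same rule, since interneurons were not among the classes compared. Among genes with at least 10% of the level of any other cell class, Lhfpl3, Tnr, Egr1 and Pcp4 were lowest over diestrus. Their log2 ratios were -3.06, -2.68, -2.60 and -2.58. Over males Lcn2, Galntl6, Grik2 and Cntn3 were lowest, at -3.75, -3.01, -2.93 and -2.83.

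Cxcl12, the capillary and arterial chemokine gene (chr6:117168535-117181367, plus strand), had 1620 CPM (1585 to 1655) in estrus, 2485 (2436 to 2534) in diestrus and 2231 (2172 to 2291) in males, at -0.62 over diestrus and under the threshold. As many cells held it in each library, 83.6%, 84.1% and 82.2% at 2000 UMIs in estrus, diestrus and males, but 30.5% of estrus cells, 51.6% of diestrus cells and 45.4% of male cells held at least 5. In the vasoactive list, the adrenomedullin and CGRP receptor gene Calcrl had 65.1, 157 and 127 CPM while its partner Ramp2 had 2257, 1236 and 1222 CPM in estrus, diestrus and males. The endothelin gene Edn1 was highest in males, with 99.1 CPM in estrus, 122 in diestrus and 233 in males.

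Genes of laminin chains, which build the basement membrane, differed in opposite directions. Lama5 had 75.4 CPM in estrus, 31.0 in diestrus and 32.9 in males, and Lama4 had 38.5, 91.2 and 83.6 CPM, with log2 ratios over diestrus of 1.26 and -1.22. They were the members past the threshold among 14 tested of 16, where the median was 0.33 beside -0.13 for all tested genes. Of the latter 1.83% were past it on the higher side and 6.61% on the lower side. In the Notch list the ligand gene Dll4 was lower in estrus with 26.6 CPM, against 56.0 in diestrus and 43.4 in males, and Hes1, a Notch target, was at 181, 185 and 189 CPM. VEGF and angiopoietin genes gave 0 calls among 11 tested of 18 over diestrus, with a median of 0.14 (-0.04 among cells with the least RNA of other cell types).

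Sex steroid receptors were scarcely detected. The oestrogen receptor gene Esr1 had 14 UMIs in estrus, 9 in diestrus and 1 in males, or 2.69, 2.25 and 0.406 CPM, and Esr2 had 0 UMIs in all 3, which allows up to 0.577, 0.750 and 1.22 CPM. The progesterone receptor gene Pgr had 13, 12 and 8 UMIs in estrus, diestrus and males. None could be compared at this depth. The retinoic acid receptor gene Rara was higher in estrus, with 36.2 CPM against 11 in diestrus and 15.0 in males. The list of hormone receptors had a median of -0.51 over diestrus, which was 0.017 among cells with the least RNA of other cell types.

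Diestrus and male capillary cells were alike in most genes. Leaving out genes far below their level in another cell class, those past the threshold on the higher side were led by Zbtb16, Gm47283, Kdm5c, Tnr, Fosb and Atf3. Outside this ranking, Xist stood at a log2 ratio of 8.72 and the smooth muscle genes Tagln and Acta2 at 5.11 and 4.54. Tnr had 1.36, but -0.23 in thinned capillary cells, -1.20 in arterial cells and -1.12 in venous-like cells. Ifit1, Ifi44 and Irgm1, which are induced by interferon, were also past the threshold on the higher side. Ifit1 had 131 CPM in diestrus and 60.5 in males, Ifi44 had 54.5 in diestrus and 25.2 in males, and Irgm1 had 55.0 in diestrus and 26.0 in males. Their estrus levels were 86.6, 22.9 and 44.3 CPM, and of 20 interferon and antigen-presentation genes tested, Ifit1 was the member past the threshold, with a median of 0.18. Kdm5c, an X-linked gene that escapes inactivation, had 48.9 CPM in estrus, 58.0 in diestrus and 21.1 in males, and the 4 escape genes had a median of 0.95 in diestrus over male and 0.68 in estrus over male.

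On the lower side in diestrus over male, Lcn2 (chr2:32384633-32388252, minus strand) stood apart. It encodes lipocalin 2, an iron-siderophore binding acute-phase protein, and had 12 UMIs in estrus, 3 in diestrus and 107 in males. Only 35 of 1140 male cells (3.07%) held these UMIs, 5 cells held 5 or more and 1 held 22. In venous-like cells it was found in 21 of 240 in estrus (8.75%), 24 of 187 in diestrus (12.8%) and 70 of 121 in males (57.9%). Whether venous cells without a UMI of the gate genes make up the male capillary cells with Lcn2 was not tested.

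Glycolysis and hypoxia genes had medians below that of all tested genes in both estrus pairs. Of 9 tested over diestrus, 4 lay above 0, Slc2a1 alone was past the threshold and the median was -0.42. Over males 2 lay above 0, Aldoa was past it on the lower side and the median was -0.78. Of all tested genes, 36.8% lay above 0 over diestrus and 44.1% over males, with medians of -0.13 and -0.08. Cholesterol synthesis genes had medians of -0.17, -0.21 and -0.09 in the 3 pairs, beside -0.13, -0.08 and 0.01 for all tested genes. The first and second turned to 0.09 and 0.12 with TMM factors. Scd2, a desaturase gene, had 76.6 in estrus, 149.5 in diestrus and 172.5 CPM in males. Aldoa and Scd2 are also abundant in neurons and glia, whose markers were lower in the estrus capillary cells, and this part was not tested. None of 8 tip cell markers reached the minimum for testing, and Pcna was the tested gene among 9 proliferation genes, at 61.4, 57.7 and 57.6 CPM in estrus, diestrus and males.

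Levels were also set beside those of other vessel segments, a contrast that the rule fixed in part and that is given as a description. Arterial cells (at least 2 UMIs of Gkn3, Bmx and Sema3g) numbered 966 and venous-like cells (at least 2 of Vwf and Vcam1, none of the arterial genes) numbered 548. Both were deeper than capillary cells, with medians of 7411 and 11347 UMIs in estrus. Capillary cells had 64 genes past the threshold on the higher side of arterial cells in all 3 libraries and 165 on the lower side, of 7113, and 95 and 66 of 7121 against venous-like cells. At 2000 UMIs per cell these counts were 38 and 115 of 7002 and 21 and 33 of 6992.

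Car4, a membrane carbonic anhydrase gene, had 912, 911 and 728 CPM in estrus, diestrus and male capillary cells, against 107, 96.8 and 47.5 CPM in the arterial cells of the same libraries. On the other side Mgp, the matrix Gla protein gene of arteries, had 31.6, 15.5 and 30.4 CPM in capillary cells against 1667, 1805 and 1467 CPM in arterial cells. Set against venous-like cells, Cxcl12 had 1620, 2485 and 2231 CPM in capillary cells against 434, 602 and 396 CPM, with log2 ratios of 1.90, 2.04 and 2.49. With cells of each class thinned to 2000 UMIs these ratios were 1.55, 1.64 and 1.64, so their size depends on depth. Il1r1, the interleukin 1 receptor gene, had 37.9, 22.7 and 18.3 CPM in capillary cells against 551, 488 and 541 CPM in venous-like cells. The segments kept the same order in each library.

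**Figure D5:**
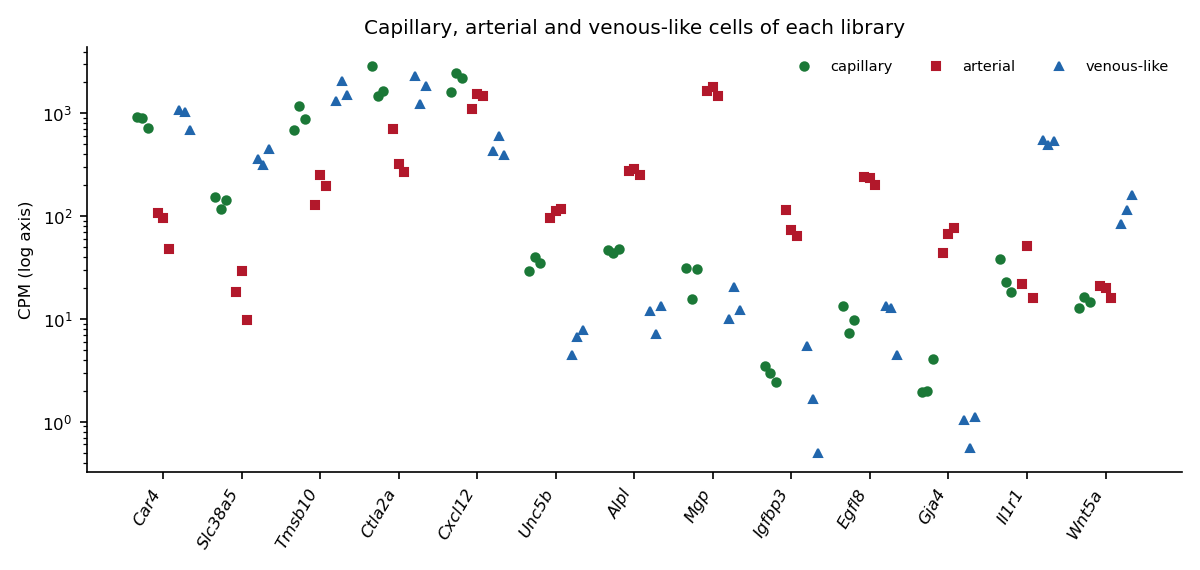
Level in CPM (log axis) of 13 genes in capillary, arterial and venous-like endothelial cells, with 3 points per class for the estrus, diestrus and male libraries in that order. A level of 0 is drawn at the lower edge. Car4 lies at 728 to 912 CPM in capillary and 47.5 to 107 CPM in arterial cells, and Il1r1 at 18.3 to 37.9 CPM in capillary and 488 to 551 CPM in venous-like cells.

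Within the capillary cells a gradient along the vessel axis was described after thinning to 2000 UMIs. Cells with arterial list genes and no venous ones (arterial-side) made up 23.4% in estrus, 14.7% in diestrus and 21.8% in males, and venous-side cells made up 19.9%, 15.3% and 13.7%. Most cells held genes of both lists, so shorter lists without Glul, Stmn2, Clu and Tmsb10 were also used. With these, arterial-side cells made up 24.2% in estrus, 35.0% in diestrus and 37.5% in males, and venous-side cells 29.1%, 19.4% and 20.5%, so the order of the libraries depends on the lists. In the shorter lists' cells Car4 had 685, 731 and 607 CPM in arterial-side cells of estrus, diestrus and males, against 1146, 1352 and 1103 CPM in venous-side cells. Cxcl12 ran the other way, at log2 ratios of 0.68, 1.06 and 1.07, while Slc2a1 was level along the axis at -0.07, -0.04 and -0.08. Of 4646 genes, 4 were past the threshold on the arterial side and 2 on the venous side in all 3 libraries.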

How the data were processed

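Single-cell RNA-seq was deposited as 3 gene-by-barcode matrices of UMI counts, 1 per library; the deposited values are raw counts, and the 3 libraries hold 32285 genes. Cell Ranger 3.0.2 and the mm10 genome are named per the submitters' processing notes, while the version is 7.0.0 per the file headers; the difference could change which barcodes and intronic reads were kept and is not resolved here. No barcode was taken as a doublet by a caller; the limits on genes of other cell types were the one guard against them.

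From the deposited counts, UMIs were summed over the capillary cells of each library and divided by their non-mitochondrial total (CPM). Log2 ratios of CPM + 1 were compared where a pair held at least 100 UMIs and a mean of 20 CPM, with exact Clopper-Pearson conditional intervals and Poisson intervals at 95%, and where no UMI was seen the upper limit is that of 3 counts. UMIs were counted at 3′ ends, so levels of different genes are not ranked. For shares of cells with a UMI, each cell was thinned to 2000 UMIs, which left out 185 estrus, 472 diestrus and 607 male cells. Total depth in capillary cells was 5360992, 4140156 and 2539559 UMIs in estrus, diestrus and males. PCR duplicates are collapsed by UMI, and intervals cover counting error only. The computation was tested on simulated data.

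The members and gene lists were chosen with earlier results of these data known, and the clock list and the shorter zonation lists were added after values were seen. Named genes were drawn from the 12 highest and 12 lowest per pair, not all of which are named. This ranking left out genes under 10% of their level in another cell class (358, 361 and 346 genes in estrus over diestrus, estrus over male and diestrus over male). The 12 highest and 12 lowest among genes highest in capillary cells were also drawn on. From each list came the members of highest level and of highest and lowest ratio. Other list members were named after their values were seen. Alternatives covered scaling factors (TMM from edgeR 4.0.16, size factors from DESeq2 1.42.0, R 4.3.3), minimum levels, depth, gene length, cell weights and the limits of the rule. Other tools were numpy 2.4.6, scipy 1.17.1, pandas 2.3.3 and matplotlib 3.10.9. Gene coordinates came from the GENCODE annotation and start-site windows from RefSeq on GRCm38.p6.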

Additional observations from a re-analysis of the deposited data

How the results depend on the processing

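Genes past a log2 ratio of 1 numbered 582 in estrus over diestrus, 1026 in estrus over male and 102 in diestrus over male. With no minimum on UMIs or CPM they were 2219, 3682 and 1058. Thinned to 2000 UMIs per cell, the counts of the estrus pairs were 377 and 517. The wider limits on other cell types gave 300 for estrus over diestrus and 49 for diestrus over male. Among genes highest in capillary cells the counts were 107, 203 and 10, since fewer genes were tested. Diestrus over male gave 58 with every cell weighted alike and 169 with cells of at least 2000 UMIs.

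The estrus share was 9.07% at a minimum of 1000 genes and 13.9% with limits on thinned cells. The diestrus share was 7.81% and 10.7% under these settings, 10.9% at 10 and 7.59% at 40 endothelial UMIs per 10000. The male share was 5.59%, 6.29%, 8.42% and 6.22% under them and 7.38% at 10% mitochondrial UMIs.

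The median of hormone receptors in estrus over diestrus was -0.51, and 0.017 under the wider limits; the cause was not tested. Of the 37 named genes past the threshold in estrus over diestrus, 444 of 444 values under the alternatives stayed past it. For the 69 in estrus over male 741 of 779 did, and for the 29 in diestrus over male 271 of 309. None of these values changed direction, but not every gene had a value under every alternative. In diestrus over male Tnr went from 1.36 to -0.23 when cells were thinned, a value that is not among those counted. Low depth limits the male cells most. No paired analysis was possible because each group is 1 library, and no replicate could be left out.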

Other observations

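Gm47283, which the GENCODE annotation places on chrY:90784738-90816464, was found in both female libraries, with 301 UMIs and 57.9 CPM (51.6 to 64.9) in estrus and 301 UMIs and 75.2 CPM (67.0 to 84.2) in diestrus, against 66 UMIs and 26.8 CPM (20.7 to 34.1) in male capillary cells. The Y-linked gene Eif2s3y was at 0 UMIs in both female libraries and at 220 UMIs in the male one, so the female signal of Gm47283 was not shared by that gene. Adarb2, known from interneurons, a type not among the classes compared, had 30.2 CPM in estrus, 38.2 in diestrus and 137 in males. Pakap was ordered by library, with 778 CPM in estrus, 533 in diestrus and 260 in males.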
